A study of Rattus norvegicus with 20 samples.

Results

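Transforming growth factor beta (TGF-beta) signalling and fibrosis were followed through 9 genes: the ligands Tgfb1, Tgfb2 and Tgfb3, the receptors Tgfbr1 and Tgfbr2, and the effectors Ccn2 (written Ctgf in the cyclosporine A table), Fn1, Mmp2 and Lox. A gene was taken when its symbol matched in either deposited table, and it was carried to the other table by its identifier. Collagen genes were left out. The symbols matched 10 entries among 32545 genes of the cyclosporine A table and 32883 of the tacrolimus table. The additional entry (ENSRNOG00000050760, chromosome 5, 64566804 to 64584309) was called Tgfbr1 in the first table and LOC103690035 in the second. It held 0 fragments in every library except tacrolimus replicate 2, which held 1, so it was not tested, and all values of Tgfbr1 here come from the other entry.

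RNA came from whole kidneys of male Wistar rats of 10 to 12 weeks, labelled wild type (WT) in all groups, after 28 days of delivery from osmotic minipumps under the skin. Saline vehicle (n = 4) was the control of cyclosporine A (n = 4). Tacrolimus (n = 6), dosed towards a plasma trough of 3.5 ng/ml, was set against a vehicle of 25% DMSO and 75% PEG500 (DMSO/PEG, n = 6). Both drugs inhibit calcineurin, a phosphatase needed for T cell activation, and both are given against transplant rejection. Samples of a group are numbered as replicates in the labels, so the p-values measure the spread between these samples, which may be partly technical. In whole-kidney RNA, fewer cells of a type and less RNA per cell cannot be told apart.

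TGF-beta ligands are secreted in a latent form that is held in the extracellular matrix and released by integrins and proteases. The active ligand binds the type II receptor Tgfbr2, which phosphorylates the type I receptor Tgfbr1, and Tgfbr1 in turn phosphorylates SMAD2 and SMAD3, which enter the nucleus with SMAD4 and act on target genes. In the kidney this pathway is known for its part in scarring between the tubules, a lesion that long exposure to calcineurin inhibitors can also bring about. Ccn2 (connective tissue growth factor) is a classical target, Fn1 (fibronectin) is a matrix glycoprotein, Mmp2 (gelatinase A) cuts denatured collagen and basement membrane, and Lox (lysyl oxidase) cross-links collagen and elastin.

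Expression is given as FPKM, the fragments assigned to a gene divided by its length and by the depth of its library, as deposited. Libraries of saline and cyclosporine A kidneys held 30451640 to 34285173 fragments, and those of DMSO/PEG and tacrolimus kidneys 31670202 to 39358485. The mitochondrial genome supplied 59.8% ± 7.97 (SD, n = 4) of the fragments with saline and 84.7% ± 4.67 (SD, n = 4) with cyclosporine A, against 11.9% ± 1.13 and 12.4% ± 1.88 (SD, n = 6 each) in the vehicle and drug groups of the tacrolimus table. Nuclear genes had 10269086 to 17233022 fragments per library with saline and 2901656 to 6539972 with cyclosporine A. In the cyclosporine A table the deposited values refer to the total of all fragments, so they were divided here by median-of-ratios size factors, which make the typical gene equal between libraries, and are called rescaled FPKM. The change of each of the 9 genes on the deposited values is given beside that on the rescaled ones. Cyclosporine A replicate 4 stood apart, with the highest mitochondrial share (90.8%) and the fewest nuclear fragments (2901656), and the changes with cyclosporine A of the 9 genes that moved by more than 1.5 times without it are given both ways. All 7 proximal tubule markers and all 4 thick ascending limb markers of the lists used here were present in both tables, none at 0 throughout a group.

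Of the 9 genes, 0 passed the test with cyclosporine A on rescaled FPKM and 0 passed with tacrolimus. The test was limma, a linear model with moderated variances, on log2(FPKM + 1), and a gene was called at a Benjamini-Hochberg adjusted p under 0.05 over all genes tested in its table. On this scale the change of genes with low values is understated. Cyclosporine A gave 82 calls among 13466 genes (0.609%) and tacrolimus gave 47 among 15493 (0.303%), so calls were rare for all genes. At an unadjusted p under 0.05, 1 of the 9 genes (Tgfbr2) stood out with cyclosporine A, against 16.2% of all genes, and 2 (Tgfb2 and Tgfb3) with tacrolimus, against 8.58% of all genes. With limma voom on the recovered fragments the counts were also 0 called and 1 and 2 genes at an unadjusted p under 0.05. The median log2 fold change of the 9 genes was −0.08 with cyclosporine A and 0.02 with tacrolimus, beside −0.00023 and −0.00033 over all genes.

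The size of a change depended on the scale for the scarcer genes. With a pseudocount of 0.1 in place of 1, and with voom, the log2 fold change with cyclosporine A was −1.19 and −1.34 for Tgfbr2, −0.66 and −1.16 for Tgfb2 and 0.47 and 0.81 for Tgfb3. Mmp2 was at 0.78 and 0.70 and Lox at −0.36 and −0.91. The adjusted p of these 5 genes ran from 0.105 to 0.850 in the 2 limma fits, so none was called. Voom also gave larger values for Tgfb1 (−0.25), Tgfbr1 (−0.27) and Ccn2 (−0.21) with cyclosporine A, and for Tgfb2 (0.34), Tgfb3 (−0.50) and Lox (−0.17) with tacrolimus.

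On deposited FPKM all 9 genes were below 0 with cyclosporine A, and 7 were called lower, all but Tgfb3 and Mmp2. Over all genes 10883 of 13466 were called lower on those values (80.8%) and 28 higher, so the count of 7 is near the background. The median log2 fold change was −0.60 for the 9 genes and −0.89 for all genes tested. These falls moved with the mitochondrial share, and its part in them was not tested.

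**Figure D1:**
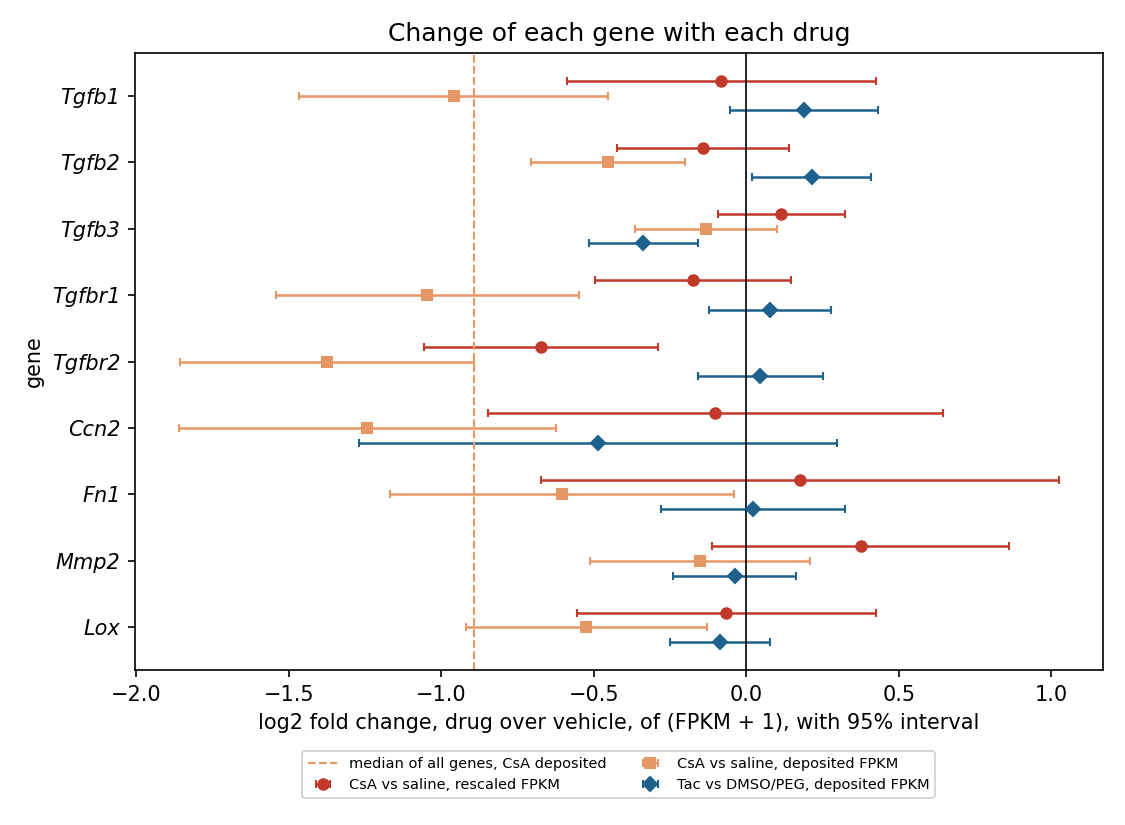
The log2 fold change of each gene (x axis, drug over vehicle, on FPKM + 1) with its 95% interval is drawn for cyclosporine A on rescaled values (circles), for cyclosporine A on deposited values (squares) and for tacrolimus (diamonds). The dashed line marks the median of all genes for the squares, −0.89. Of the circles, the interval of Tgfbr2 alone lies apart from 0, and of the diamonds those of Tgfb2 and Tgfb3, all before adjustment for the number of genes tested.

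Tgfb1, the ligand most linked to kidney scarring, lies on chromosome 1 at 82480195 to 82497199 (plus strand, ENSRNOG00000020652). Its rescaled FPKM was 1.71, 1.35, 2.28 and 2.55 in saline replicates 1 to 4 and 1.76, 1.84, 0.902 and 2.96 in cyclosporine A replicates 1 to 4. The groups overlapped fully, and the lowest and the highest kidney were both treated ones. Tgfb1 had a log2 fold change of −0.08 ± 0.23 (SE, limma adjusted p = 0.903), with a 95% interval of −0.59 to 0.42, and −0.25 (0.582) without cyclosporine A replicate 4. It turned to 0.01 without saline replicate 4 and to 0.10 without cyclosporine A replicate 3, so its sign rested on single kidneys. On deposited FPKM it was −0.96 (limma adjusted p = 0.00204). In the DMSO/PEG and tacrolimus kidneys Tgfb1 ran from 9.24 to 13.5 FPKM with vehicle (median 11.1) and from 9.34 to 14.2 with drug (median 13.4). Of the tacrolimus kidneys 5 lay between 13.4 and 14.2, and replicate 3 lay near the low end of the vehicle range. The change was 0.19 ± 0.11 (log2, SE, limma adjusted p = 0.709).

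Tgfb2 (chromosome 13, 105039853 to 105141030, minus strand, ENSRNOG00000002418), a ligand isoform that needs a co-receptor for tight binding to Tgfbr2, was among the scarcest of the 9 genes. With saline its rescaled FPKM was 0.3945, 0.377, 0.375 and 0.236, and with cyclosporine A 0.0381, 0.306, 0.0770 and 0.509. These rest on 34 to 75 fragments per saline kidney and on 2, 23, 5 and 19 in the treated ones. Treated kidneys 1 and 3 were below all saline kidneys and treated kidney 4 was above them. The change was −0.14 ± 0.13 (SE, log2, limma adjusted p = 0.630) on rescaled FPKM, −0.24 (0.275) without cyclosporine A replicate 4, −0.06 (0.838) without cyclosporine A replicate 1, −0.08 (0.799) without cyclosporine A replicate 3 and −0.45 (0.00286) on deposited FPKM. With tacrolimus Tgfb2 was 2.00 to 2.36 FPKM (median 2.09), beside 1.14 to 2.07 (median 1.88) with vehicle. Of the treated kidneys 3 lay above every vehicle kidney, and vehicle kidneys 3 and 4 were lowest at 1.14 and 1.42. The log2 fold change of 0.21 ± 0.09 (SE) had an unadjusted limma p of 0.0333 and an adjusted p of 0.504.

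Tgfb3 (chromosome 6, 109913757 to 109935533, minus strand, ENSRNOG00000009867) is the isoform known for scar-poor repair in skin. With saline it gave 0.185, 0.401, 0.176 and 0.0960 rescaled FPKM and with cyclosporine A 0.304, 0.340, 0.311 and 0.285, from 10 to 43 fragments per kidney. The 4 treated kidneys lay close together and above 3 of the 4 saline kidneys, with saline replicate 2 highest of all. Its log2 fold change was 0.12 ± 0.09 (SE, limma adjusted p = 0.592) on rescaled FPKM and −0.13 (0.270) on deposited FPKM, so its sign turned with the scaling. With a kidney left out the rescaled change ran from 0.07 to 0.19. In the tacrolimus table it was lower with drug, 1.40 to 2.15 FPKM (median 1.75) beside 2.08 to 2.99 (median 2.47) with vehicle. The groups overlapped by 1 kidney each way, tacrolimus replicate 1 at 2.15 and vehicle replicate 4 at 2.08. The log2 fold change of −0.34 ± 0.08 (SE, 95% interval −0.52 to −0.16) had the smallest p of the 9 genes, 0.00128, and missed the threshold after adjustment over 15493 genes (limma adjusted p = 0.147). The adjusted p stayed between 0.114 and 0.343 over the other settings and the kidneys left out in turn.

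The type I receptor Tgfbr1 lies on chromosome 5 at 63050758 to 63119635 (plus strand, ENSRNOG00000007036). Its rescaled FPKM was 2.22, 1.97, 1.79 and 2.66 with saline and 1.80, 2.15, 1.38 and 1.86 with cyclosporine A. The ranges overlapped, and the log2 fold change was −0.17 ± 0.14 (SE, limma adjusted p = 0.602), beside −1.05 (0.00117) on deposited FPKM. It was −0.10 without saline replicate 4 or cyclosporine A replicate 3. With tacrolimus it ran from 9.002 to 10.8 FPKM (median 9.47) and with its vehicle from 7.07 to 11.9 (median 8.99). The treated range lay wholly inside the vehicle range, with a log2 fold change of 0.08 ± 0.09 (SE, limma adjusted p = 0.899), which ran from 0.01 to 0.15 with a kidney left out (vehicle replicates 3 and 2).

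Tgfbr2, the receptor that binds the ligand first, had the smallest p of the 9 genes with cyclosporine A (chromosome 8, 124312754 to 124399494, minus strand, ENSRNOG00000013265). Its rescaled FPKM was 2.57, 1.51, 1.57 and 1.56 in the saline kidneys and 1.201, 0.533, 0.786 and 0.509 in the cyclosporine A kidneys, from 172 to 489 and from 19 to 63 fragments. Every treated kidney lay below every saline kidney. Of the 9 genes 1 was so placed, and of all genes tested 6.1% had groups that did not overlap with the drug group lower. The group means were 1.80 ± 0.515 and 0.757 ± 0.322 (SD, n = 4 each), a ratio of 0.42. The log2 fold change of −0.67 ± 0.17 (SE, 95% interval −1.06 to −0.29) had an unadjusted limma p of 0.00291 and an adjusted p of 0.0996, so it was not called. On deposited FPKM the change was −1.37 (limma adjusted p = 0.000513). Without cyclosporine A replicate 4 the rescaled change was −0.61 (limma adjusted p = 0.151), and without saline replicate 1, the highest kidney, −0.55 (0.249). Summed endothelial markers (9 of 10 listed genes in the table, none at 0 throughout) were 28.1 to 48.4 rescaled FPKM with saline and 22.9 to 38.8 with cyclosporine A, and the 4 thick ascending limb markers were 313 to 565 and 149 to 247. The thick ascending limb sums of the groups did not overlap and the endothelial sums did. Of the 4 thick ascending limb markers 1 had a log2 fold change above 0. Umod, 1 of the 4, alone went from 327 ± 101 to 127 ± 38.2 rescaled FPKM (SD, n = 4 each). The part of these cells in the difference of Tgfbr2 was not tested. In the tacrolimus table Tgfbr2 was 25.4 to 35.9 FPKM with vehicle (median 33.7) and 27.4 to 35.8 with drug (median 33.3). These ranges nearly coincided, with a log2 fold change of 0.05 ± 0.09 (SE, limma adjusted p = 0.945) that fell just below 0 without vehicle replicate 3 or 5.

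**Figure D2:**
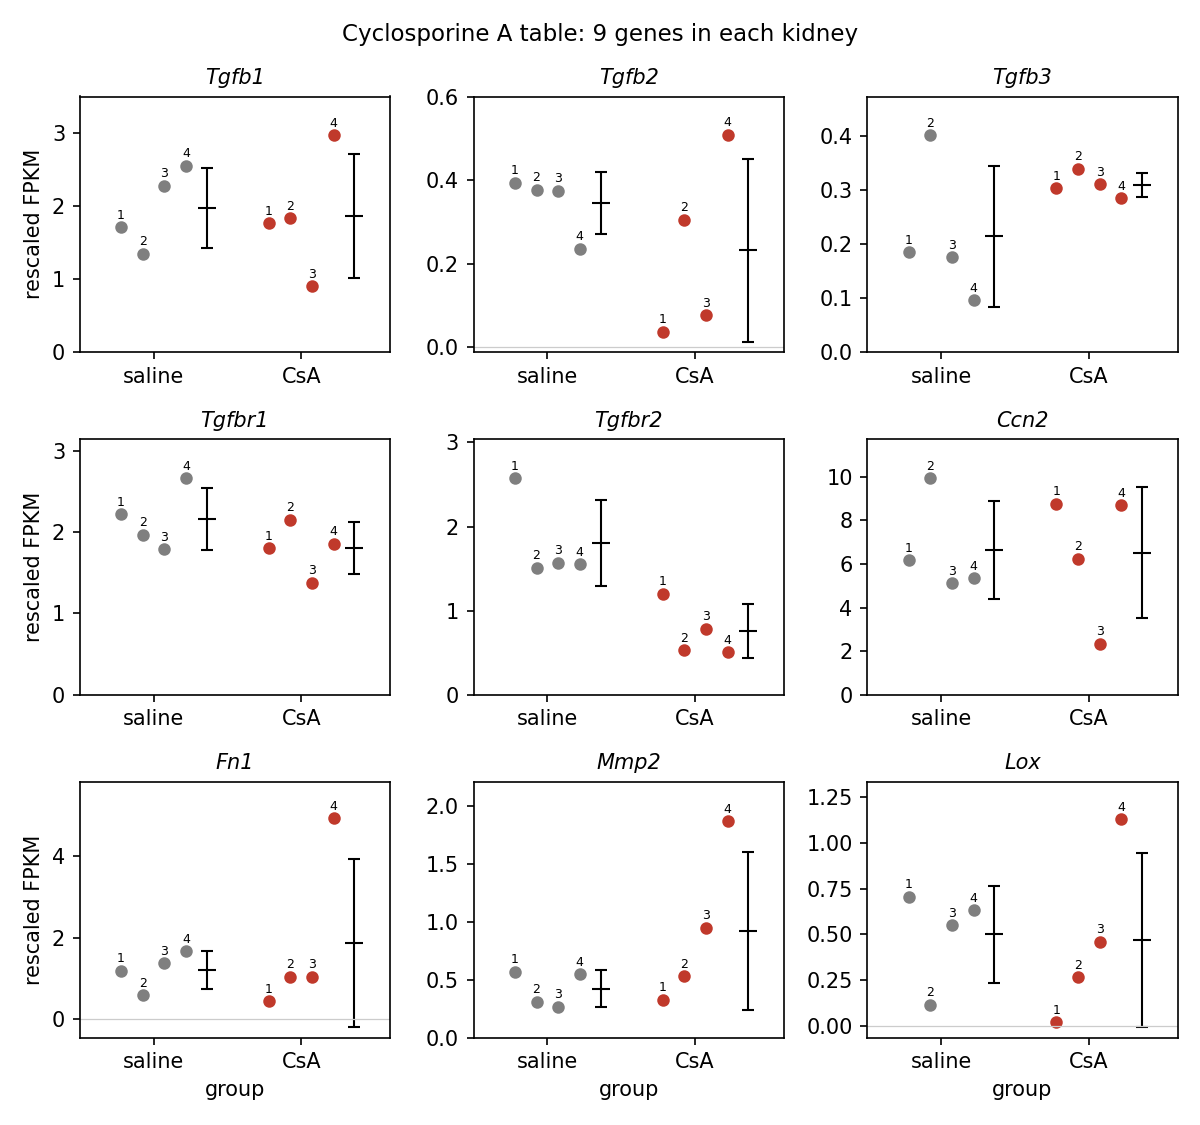
Rescaled FPKM (y axis, a separate scale for each gene) of the 9 genes is shown in each of the 4 saline and 4 cyclosporine A kidneys, with the replicate number above each point and the mean ± SD beside each group. The treated kidneys lie below all saline kidneys for Tgfbr2 (0.509 to 1.201 against 1.51 to 2.57), and treated kidney 4 is highest for Tgfb1, Tgfb2, Fn1, Mmp2 and Lox.

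Ccn2, a secreted matricellular protein (chromosome 1, 21851660 to 21854773, minus strand, ENSRNOG00000015036), had the highest mean of the 9 genes in 3 of the 4 groups. Its rescaled FPKM was 6.17, 9.93, 5.11 and 5.35 with saline and 8.77, 6.24, 2.35 and 8.68 with cyclosporine A. Treated kidney 3 was the lowest and saline kidney 2 the highest, with the others mixed. A log2 fold change of −0.10 ± 0.33 was found on rescaled FPKM (SE, limma adjusted p = 0.919), and −1.24 (0.00146) on deposited FPKM. It was −0.26 without cyclosporine A replicate 4 and turned to 0.25 without cyclosporine A replicate 3 and to 0.08 without saline replicate 2, so its sign rested on single kidneys.

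In the tacrolimus table the spread of Ccn2 lay in the vehicle group. Vehicle replicates 1 and 2 were at 77.6 and 94.6 FPKM and the other 4 at 18.3 to 34.1, with a group median of 32.2, whereas the tacrolimus kidneys were at 18.0 to 38.5 (median 27.3). The treated range lay close to that of the lower 4 vehicle kidneys. Its log2 fold change with tacrolimus was −0.49 ± 0.36 (SE, 95% interval −1.27 to 0.30, limma adjusted p = 0.792), −0.29 without vehicle replicate 1 and −0.23 without vehicle replicate 2. Of the high pair, vehicle replicate 2 was also the highest of its group for Tgfb1 (13.5 FPKM), Tgfb2 (2.07), Tgfbr1 (11.9) and Fn1 (24.0). Vehicle replicate 1 was the lowest for Tgfb1 (9.24 FPKM) and Mmp2 (7.002 FPKM). In vehicle replicate 2 summed fibroblast (211), pericyte and smooth muscle (153), endothelial (269), macrophage (804) and podocyte (103) markers were highest of its group. Its proximal tubule (2691) and thick ascending limb (2197) markers were the lowest, and the part of these cells was not tested.

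Fn1 (chromosome 9, 78900103 to 78969078, minus strand, ENSRNOG00000014288) gave 1.19, 0.594, 1.37 and 1.68 rescaled FPKM with saline and 0.451, 1.05, 1.05 and 4.92 with cyclosporine A. Treated kidney 4 was far above every other kidney, and the other treated kidneys were at or below most saline ones. The log2 fold change of 0.18 ± 0.38 (SE, limma adjusted p = 0.869) became −0.25 (0.596) without that kidney, and it was −0.60 (0.0463) on deposited FPKM. With tacrolimus Fn1 ran from 14.5 to 22.7 FPKM (median 18.4), beside 13.7 to 24.0 (median 19.1) with vehicle. The ranges matched closely and the log2 fold change was 0.02 ± 0.14 (SE, limma adjusted p = 0.987), below 0 without tacrolimus replicate 1 or 2 or vehicle replicate 3 or 5.

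Mmp2 (chromosome 19, 15542765 to 15570611, minus strand, ENSRNOG00000016695) was 0.568, 0.310, 0.266 and 0.548 rescaled FPKM with saline and 0.328, 0.531, 0.950 and 1.87 with cyclosporine A. Treated kidneys 3 and 4 lay above all saline kidneys and the other pair lay among them. The group means were 0.423 ± 0.157 and 0.920 ± 0.685 (SD, n = 4 each), a ratio of 2.18. Its log2 fold change was 0.38 ± 0.22 (SE, limma adjusted p = 0.433), 0.16 (0.646) without cyclosporine A replicate 4 and −0.15 (0.414) on deposited FPKM. In the other table Mmp2 was 7.002 to 7.95 FPKM with vehicle (median 7.57), with a coefficient of variation of 4.95%, and 5.56 to 8.88 with drug (median 7.38). The drug group extended past the vehicle group at both ends, with a log2 fold change of −0.04 ± 0.09 (SE, limma adjusted p = 0.956) that turned to 0.03 without tacrolimus replicate 3.

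Lox (chromosome 18, 47500330 to 47577819, minus strand, ENSRNOG00000014426) was 0.706, 0.117, 0.550 and 0.631 rescaled FPKM with saline and 0.0211, 0.266, 0.461 and 1.13 with cyclosporine A. Treated kidney 1 rests on 1 fragment and saline kidney 2 on 12, and treated kidney 4 was again the highest. For Lox the log2 fold change was −0.07 ± 0.22 (SE, limma adjusted p = 0.921), −0.26 (0.503) without treated kidney 4 and −0.52 (0.0168) on deposited FPKM. It turned to 0.09 without treated kidney 1 and to 0.0027 without saline kidney 1. In the tacrolimus table it was 0.974 to 1.46 FPKM with vehicle (median 1.32) and 0.875 to 1.44 with drug (median 1.19). The ranges overlapped almost fully, with a log2 fold change of −0.09 ± 0.08 (SE, limma adjusted p = 0.844) that ran from −0.13 to −0.05 with a kidney left out.

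**Figure D3:**
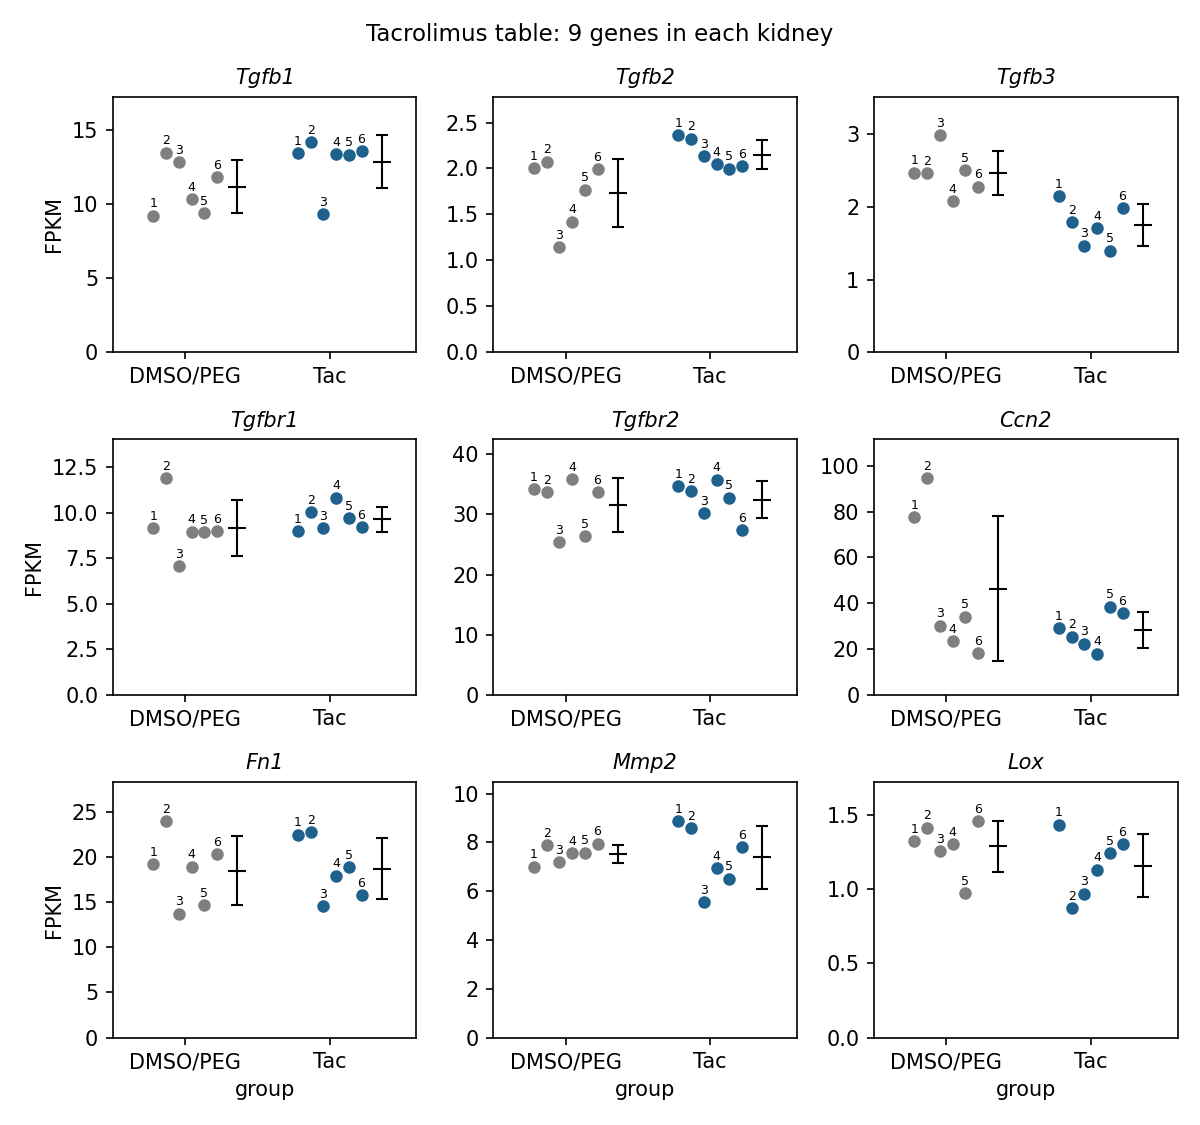
FPKM (y axis, a separate scale for each gene) of the 9 genes is shown in each of the 6 DMSO/PEG and 6 tacrolimus kidneys, with replicate numbers and the mean ± SD beside each group. Most tacrolimus kidneys lie low for Tgfb3 (1.40 to 2.15 against 2.08 to 2.99), and vehicle kidneys 1 and 2 lie far above the rest for Ccn2.

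The difference between the drugs, the tacrolimus change taken from the cyclosporine A change, passed the threshold for 0 of the 9 genes, against 220 of 13400 genes tested in both tables (1.64%). At an unadjusted p under 0.05 there were 3 (Tgfb2, Tgfb3 and Tgfbr2), against 16% of all genes, and with limma voom 0 passed and 2 were under that level. For Tgfb3 the difference was 0.45 ± 0.12 (SE, log2, 95% interval 0.19 to 0.71, limma adjusted p = 0.0638). For Tgfbr2 it was −0.72 ± 0.20 (SE, 95% interval −1.14 to −0.30, limma adjusted p = 0.0744). Tgfb2 followed at −0.36 ± 0.15 (SE, limma adjusted p = 0.266), and the other 6 genes had adjusted p from 0.432 to 0.978. With a pseudocount of 0.1 and with voom the differences were larger and also not called, 0.95 and 1.31 for Tgfb3, −1.23 and −1.38 for Tgfbr2 and −0.98 and −1.50 for Tgfb2 (limma adjusted p from 0.0859 to 0.379). Tgfb3 was called when saline replicate 2 (limma adjusted p = 0.0496) or tacrolimus replicate 1 (0.0467) was left out, and Tgfbr2 when the replicate number was added as a block (0.0461). On deposited FPKM 4 of the 9 were called, Tgfb1, Tgfb2, Tgfbr1 and Tgfbr2, each with the lower value for cyclosporine A, beside 74.8% of all genes called in that direction. Drug, vehicle and table differ together in this comparison and cannot be told apart.

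Levels are compared between genes per length, within each table alone. With saline the order of mean rescaled FPKM was Ccn2 (6.64), Tgfbr1 (2.16), Tgfb1 (1.97), Tgfbr2 (1.80), Fn1 (1.21), Lox (0.501), Mmp2 (0.423), Tgfb2 (0.346) and Tgfb3 (0.214). Neighbours in that order overlapped in range except Ccn2 and Tgfbr1. With cyclosporine A the order was Ccn2 (6.51), Fn1 (1.87), Tgfb1 (1.87), Tgfbr1 (1.80), Mmp2 (0.920), Tgfbr2 (0.757), Lox (0.469), Tgfb3 (0.310) and Tgfb2 (0.233), and every neighbouring pair overlapped. Several of these places rested on treated kidney 4. Without it the order was Ccn2 (5.79), Tgfbr1 (1.78), Tgfb1 (1.5002), Fn1 (0.849), Tgfbr2 (0.8401), Mmp2 (0.603), Tgfb3 (0.318), Lox (0.249) and Tgfb2 (0.1404).

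In the tacrolimus table the DMSO/PEG order was Ccn2 (46.4 FPKM), Tgfbr2 (31.5), Fn1 (18.5), Tgfb1 (11.2), Tgfbr1 (9.17), Mmp2 (7.53), Tgfb3 (2.47), Tgfb2 (1.73) and Lox (1.29). With tacrolimus it was Tgfbr2 (32.4), Ccn2 (28.2), Fn1 (18.7), Tgfb1 (12.9), Tgfbr1 (9.66), Mmp2 (7.38), Tgfb2 (2.15), Tgfb3 (1.75) and Lox (1.16). The pairs that changed places were Ccn2 with Tgfbr2 and Tgfb3 with Tgfb2. Neighbours whose ranges did not overlap were Tgfbr2 and Fn1, Fn1 and Tgfb1, Mmp2 and Tgfb3, and Tgfb3 and Tgfb2 with vehicle. With tacrolimus they were Fn1 and Tgfb1, Tgfbr1 and Mmp2, and Mmp2 and Tgfb2. Tgfb3 thus lay wholly above Tgfb2 in the vehicle kidneys and overlapped it in the treated ones.

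Over the 8 kidneys of the cyclosporine A table Pearson's r on log2(rescaled FPKM + 1) was 0.90 for Fn1 with Lox, 0.84 for Fn1 with Mmp2 and 0.72 for Mmp2 with Lox, a description in which treated kidney 4 is the highest point of each pair. Without that kidney r was 0.91 for Fn1 with Lox, 0.32 for Fn1 with Mmp2 and 0.41 for Mmp2 with Lox, so the latter pairs rested on it. The summed level of 8 fibroblast markers was 54.8 rescaled FPKM in that kidney, 12.02 to 13.7 in the other treated kidneys and 13.0 to 32.0 with saline. Its 10 macrophage markers summed to 168, its 5 podocyte markers to 11.99 and its collecting duct markers to 344, each the highest of the table, and its proximal tubule (117) and thick ascending limb (149) markers were the lowest. None of the 8 fibroblast and 5 podocyte markers was at 0 throughout a group, 1 macrophage marker was at 0 in all saline kidneys, and the part of these cells in the levels of Fn1, Mmp2 and Lox was not tested.

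Over the 12 kidneys of the tacrolimus table the closest pair was another one, Fn1 with Tgfbr2 (r = 0.79). Tgfb2 with Tgfbr1 followed at 0.65 and Fn1 with Tgfbr1 at 0.63. Of the matrix genes Fn1 with Mmp2 was at 0.58 and Fn1 with Lox at 0.34. Fibroblast markers summed to 155 to 211 FPKM with DMSO/PEG and 121 to 194 with tacrolimus. Tgfb2 with Tgfb3 was at −0.53 over both groups together. Mean Tgfb2 was higher and mean Tgfb3 lower with drug, and r within a group was not computed.

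**Figure D4:**
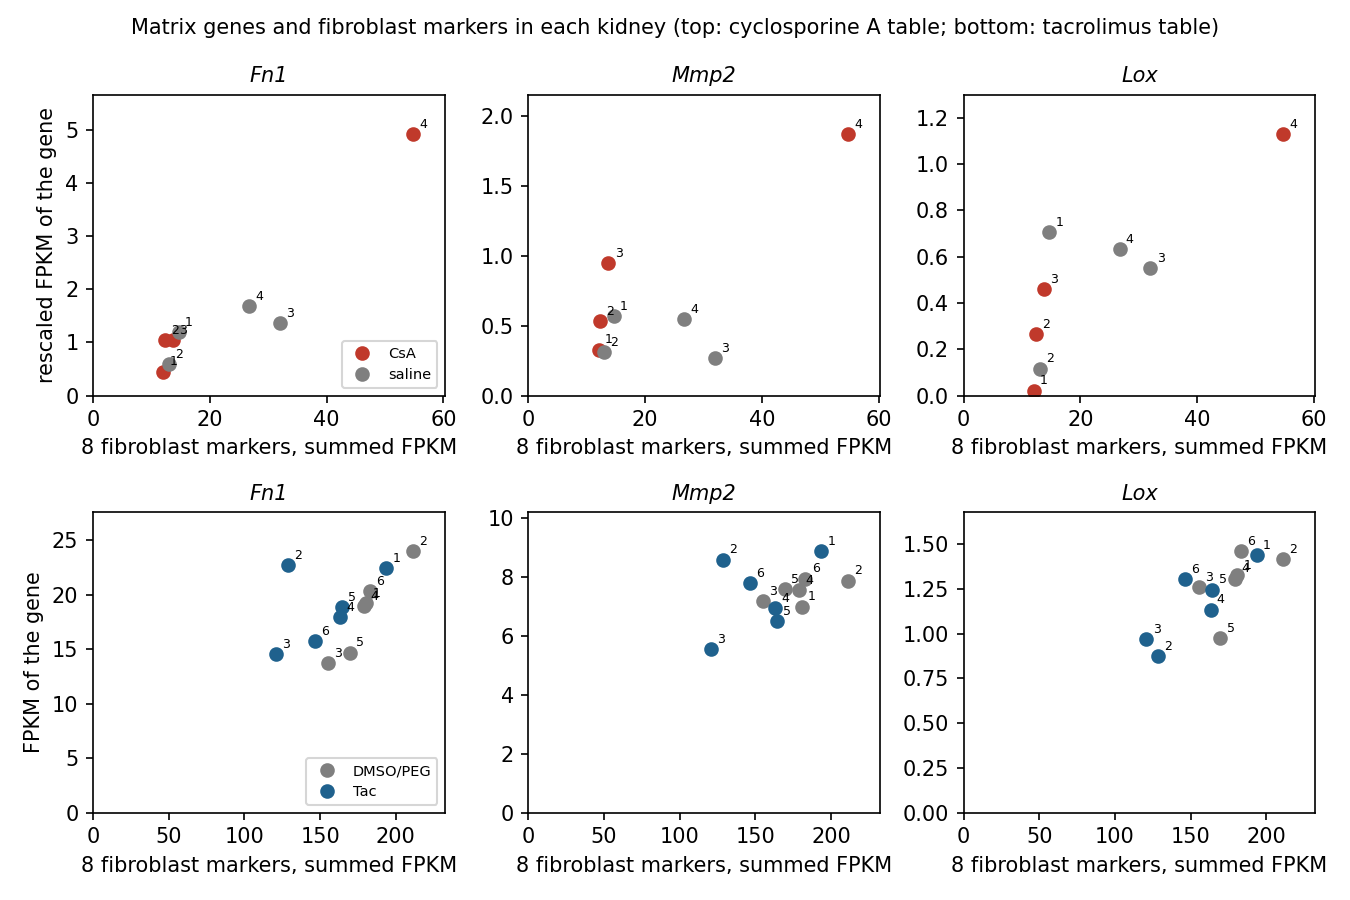
Each kidney's level of Fn1, Mmp2 and Lox (y axis) is set against the summed FPKM of 8 fibroblast markers (x axis), with cyclosporine A and saline kidneys on rescaled values in the top row and tacrolimus and DMSO/PEG kidneys in the bottom row. Cyclosporine A kidney 4, at 54.8 on the x axis, lies at the top right of all 3 upper panels.

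Each gene's nearest companions were sought among 9719 genes by Pearson's r over the 20 kidneys, on log2 values less the table mean. Fn1 had the closest ones, the complement proteases C1s (0.95) and C1r (0.94) and the copper carrier Cp (ceruloplasmin, 0.92). Mmp2 ran with the kinase Fyn (0.90), Poglut3 (0.87) and the basement membrane collagen Col4a1 (0.86), and Lox with the matrix protein Spon1, the membrane protein Mxra8 and AABR07035098.1 (0.82 to 0.83). Ccn2 was nearest to Tob2 (0.86), an antiproliferative protein, the glucocorticoid-induced Tsc22d3 (0.79) and Vasn (0.79), a protein that can bind TGF-beta. Several of these values were higher in the cyclosporine A table than in the tacrolimus table, 0.91 and 0.26 for Mxra8 with Lox, 0.897 and 0.45 for Spon1 with Lox and 0.96 and 0.64 for Fyn with Mmp2. Those of Ccn2 went the other way, 0.73 and 0.90 for Tob2, 0.66 and 0.83 for Tsc22d3 and 0.61 and 0.86 for Vasn. Without cyclosporine A kidney 4 the likeness over 19 kidneys was 0.78 to 0.86 for the 3 companions of Fn1, 0.64 to 0.75 for those of Mmp2 and 0.72 to 0.73 for those of Lox. It was 0.79 to 0.85 for those of Ccn2, 0.82 to 0.85 for Tgfbr2 and 0.82 to 0.83 for Tgfb1. The companions of Fn1 were then no closer as a set, so that ranking rested on kidney 4.

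Among the receptors, Tgfbr2 was nearest to AC095678.1 (0.87), the splicing factor Prpf8 (0.84) and the calcium channel Itpr1 (0.82), and Tgfbr1 to Abca7 (0.81), talin Tln1 (0.78) and Prepl (0.72). Tgfb1 was nearest to the cytokine Tnfsf12 (0.87), Cygb (0.85), a globin of fibroblast-like cells, and the antiviral Dhx58 (0.85). The companions of Tgfb3 were Vdr (0.77, the vitamin D receptor), B3gnt7 (0.76) and Mlph (0.73). Those of Tgfb2 were RGD1310553 (0.75), Rbl2 (0.74) and Dclre1b (0.73). For B3gnt7 with Tgfb3 the value was 0.28 within the cyclosporine A table and 0.85 within the tacrolimus table. These values describe the same 20 libraries and share their depth. Each companion was picked as one of the highest of 9719 genes, which by itself yields high values. How high r would be for unrelated genes was not tested.

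A list of 109 other genes of the pathway and of the matrix was read from the same fits, of which 108 were in the tables. With cyclosporine A 1 of 94 tested genes passed on rescaled FPKM, and 17 had an unadjusted p under 0.05, 18.1% beside 16.2% of all genes. The median log2 fold change was 0.03. On deposited FPKM 67 of the 94 were called lower, beside 80.8% of all genes, with a median of −0.77 beside −0.89. With tacrolimus 0 of 103 passed in limma, 7 had an unadjusted p under 0.05 (6.8%, beside 8.58% of all genes) and the median was 0.01.

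The gene that passed was Tgfbi, a secreted adhesion protein induced by TGF-beta. It fell from 10.96 ± 0.628 to 6.44 ± 0.387 rescaled FPKM (SD, n = 4 each) with cyclosporine A, a log2 fold change of −0.68 ± 0.10 (SE, limma adjusted p = 0.0251), and −1.86 (0.000328) on deposited FPKM. The log2 fold change kept its sign in each of 17 other settings and the call was lost in 9, among them no filter on low values (limma adjusted p = 0.0536), the replicate block (0.0860) and 6 of the 8 kidneys left out in turn (up to 0.108, without saline replicate 4). With tacrolimus it was 21.8 ± 3.11 and 22.2 ± 3.39 FPKM (SD, n = 6 each, limma adjusted p = 0.983). The difference between the drugs passed as well (−0.71 ± 0.15, SE, limma adjusted p = 0.0206) and was lost without saline replicate 1, 2 or 4 (0.0539 to 0.0787). Plau, the urokinase that activates plasminogen, went from 92.7 ± 19.8 to 46.8 ± 9.34 rescaled FPKM (SD, n = 4 each) with cyclosporine A and just missed the threshold (log2 fold change −0.97, limma adjusted p = 0.0523, and −2.27, 0.00042, on deposited FPKM). It was called in 5 of 17 other settings, among them voom (limma adjusted p = 0.0141) and a mean of at least 1 FPKM (0.0416). For Plau the difference from tacrolimus passed (−0.92 ± 0.19, SE, limma adjusted p = 0.0383). That difference was lost without saline replicate 1, 2 or 4 or cyclosporine A replicate 1, 3 or 4 (limma adjusted p from 0.0583 to 0.117). Plau and Tgfbi were the 2 of 94 genes for which the difference passed, beside 1.64% of all genes.

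By role, with cyclosporine A 0 of 18 tested genes of ligand activation and extracellular control passed and 2 had an unadjusted p under 0.05: Furin, the protease that cleaves the TGF-beta precursor (−0.42, limma adjusted p = 0.227), and Itgb6, a subunit of an activating integrin of epithelia (0.36, 0.213). Of the 6 receptors and co-receptors 0 passed, 2 had an unadjusted p under 0.05, 4 were below 0 and the median was −0.20. The smallest p below 0 belonged to the endothelial co-receptor Eng (−0.55, limma adjusted p = 0.151). Above 0 it belonged to its partner Acvrl1, a type I receptor (0.33, 0.359), which was not among those 2. Among 17 intracellular genes 0 passed and 2 had an unadjusted p under 0.05, with the ubiquitin ligase Smurf1 at −0.49 and the kinase adaptor Tab1 at 0.26 (limma adjusted p = 0.308 each).

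Of 22 tested transcriptional targets 16 were above 0, with a median of 0.13, 4 had an unadjusted p under 0.05 and 1 passed (Tgfbi, lower). The highest-ranked of those above 0 was the transcription factor Junb (0.48, limma adjusted p = 0.130). On deposited FPKM 1 of these 22 targets was above 0 and their median was −0.70. Of 23 lysyl oxidase and matrix genes 0 passed and 3 had an unadjusted p under 0.05. The collagen chaperone Serpinh1 was at −0.38 (limma adjusted p = 0.269) and elastin, Eln, at 0.46 (0.186). Of 13 matrix degradation genes 0 passed, 4 had an unadjusted p under 0.05 (30.8%, beside 16.2% of all genes) and 9 were above 0, among them the protease Adamts1 at 0.62 (limma adjusted p = 0.0864). Of those 13 genes 4 were above 0 on deposited FPKM, with a median of −0.42. On deposited FPKM the values above 0 named here for cyclosporine A all lay below 0, Itgb6 at −0.75, Acvrl1 at −0.47, Tab1 at −0.76, Junb at −0.71, Eln at −0.09 and Adamts1 at −0.13, and Furin, Eng, Smurf1 and Serpinh1 lay between −1.62 and −1.40.

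With tacrolimus 0 genes passed in each of these groups. The smallest p-values below and above 0 belonged to the proteoglycan Fmod (−0.47, limma adjusted p = 0.422) and the latency partner Nrros (0.19, 0.709), the receptors Acvr1b (−0.01, 0.991) and Tgfbr3 (0.14, 0.707), and the repressors Skil (−0.09, 0.930) and Tgif2 (0.15, 0.458). Among the targets they were the transcription factors Zeb1 (−0.17, limma adjusted p = 0.693) and Snai1 (0.29, 0.372). For the matrix and its degradation they were the proteoglycan Lum (−0.58, limma adjusted p = 0.211), the laminin chain Lamb1 (0.11, 0.639), Adamts2 (−0.09, 0.844) and Adamts1 (0.37, 0.454). Lum went from 2.18 ± 0.749 to 1.09 ± 0.344 FPKM (SD, n = 6 each), and it is also one of the fibroblast markers, of which 0 of 8 passed, 2 had an unadjusted p under 0.05 and 6 were below 0 (median −0.14).

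**Figure D5:**
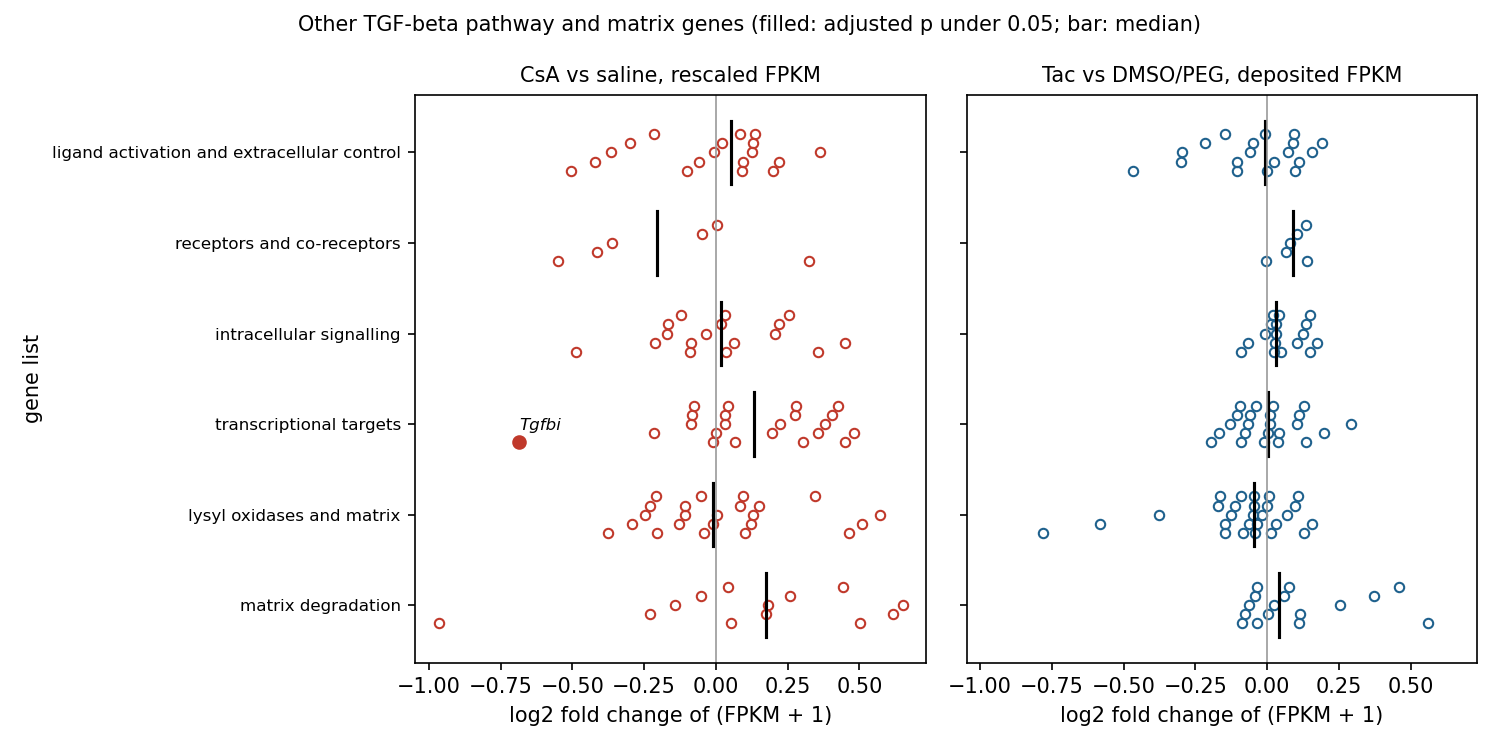
Each point is the log2 fold change (x axis, on FPKM + 1) of a tested pathway or matrix gene, grouped by role (y axis), for cyclosporine A on rescaled FPKM at left and tacrolimus at right, with a bar at each median and a filled point where the adjusted p was under 0.05. Tgfbi at −0.68 is the single filled point, and no median lies beyond −0.20 or 0.18.

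Upstream sequence was read from a RefSeq promoter table of the GRCr8 assembly, which held 6 of the 9 genes (Fn1, Mmp2 and Lox were not matched). The 250 bases before the start are shown for Ccn2, the most abundant effector, and for Tgfbr2, the one of the 9 with the smallest p with cyclosporine A. Capitals mark the letters searched on both strands: CAGAC (SMAD box), CATTCC (TEAD site, read as GGAATG on the other strand) and GGGCGG (GC box, read as CCGCCC on the other strand).
Ccn2, chr1:22624615-22624864, minus strand: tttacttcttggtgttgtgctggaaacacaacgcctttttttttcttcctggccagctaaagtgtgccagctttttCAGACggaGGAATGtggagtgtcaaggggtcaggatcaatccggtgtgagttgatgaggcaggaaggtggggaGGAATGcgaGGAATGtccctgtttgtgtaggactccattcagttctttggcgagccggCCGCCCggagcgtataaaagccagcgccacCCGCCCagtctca
Tgfbr2, chr8:124761470-124761719, minus strand: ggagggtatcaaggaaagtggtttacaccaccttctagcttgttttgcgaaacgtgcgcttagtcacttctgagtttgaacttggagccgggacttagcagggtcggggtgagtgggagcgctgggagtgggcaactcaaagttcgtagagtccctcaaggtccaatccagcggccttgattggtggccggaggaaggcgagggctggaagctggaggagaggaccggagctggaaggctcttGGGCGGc

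Ccn2 held 1 SMAD box, 174 bases before the start, 3 TEAD sites at 166, 101 and 92 bases and 2 GC boxes at 43 and 13 bases. Of all 33469 promoters of that length 42.9% held a SMAD box, 12.1% a TEAD site and 30.5% a GC box, and 0.0807% held 3 or more TEAD sites. The cutoff of 3 was taken from Ccn2 itself, and no share for repeated matches was computed for the other motifs. Tgfbr2 held 1 GC box, 7 bases before the start, and no other of these letters in this window. Tgfbr1 held 3 GC boxes, and the windows of Tgfb1, Tgfb2 and Tgfb3 held none of the 3 motifs. These matches describe letters and do not show binding.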

How the data were processed

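Bulk RNA sequencing of 20 kidneys was read from the deposited tables of FPKM. The authors aligned with HISAT2 to rn6, per the submitters' processing notes, and the counting program and strand setting are not given in the sources used here. Positions are printed as deposited. The FPKM the authors deposited for cyclosporine A are relative to all fragments, and those for tacrolimus already follow median-of-ratios size factors, both judged from the values. Fragments were recovered from FPKM, length and depth (tolerance 0.02 of a fragment). For cyclosporine A and saline 23.7% of detected genes came out whole with a shorter length than listed only, Tgfb2, Tgfbr1, Ccn2, Fn1 and Lox among them, so levels were not compared between tables.

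A gene was tested when enough libraries (as many as the smaller group) reached the value of 10 fragments in a library of median size, and when it had 15 fragments in total. The test was limma 3.58.1 (R 4.3.3) on log2(FPKM + 1) with group as the term, trended empirical Bayes and Benjamini-Hochberg adjustment. It was also run on simulated data, with the same dispersion for every gene and changes placed only in well-covered genes. That trial does not cover the scarce genes among the 9. Differences between the drugs used the limma standard errors of both fits with Satterthwaite degrees of freedom. Members, gene lists and the use of rescaled FPKM were chosen with earlier results of these data known. Of each list, genes called (at most 5 per direction) or else the smallest p in each direction were named, and for each of the 9 genes the 3 nearest by Pearson's r. Alternatives were other scalings, pseudocounts and filters, array weights, voom, a replicate block and each kidney left out. Correlations, orders and companions without cyclosporine A replicate 4 were added after seeing the data.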

Additional observations from a re-analysis of the deposited data

Results flagged for a closer look

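In 36 groups of kidneys (9 genes in 4 groups) 4 held a kidney whose gap to the nearest other exceeded the 95% limit of Dixon's test, and chance alone gives about 1 in 20. Tgfb1 was 9.34 FPKM in tacrolimus replicate 3, against 13.4 to 14.2 in the other tacrolimus kidneys. Tgfb2 was 0.236 rescaled FPKM in saline replicate 4, against 0.375 to 0.3945 in the other saline kidneys. Tgfbr2 was 2.57 rescaled FPKM in saline replicate 1, against 1.51 to 1.57 in the others. Fn1 was 4.92 rescaled FPKM in cyclosporine A replicate 4, against 0.451 to 1.05 in the others.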

How the results depend on the processing

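For cyclosporine A the number of the 9 genes called was 0 under every alternative except deposited FPKM (7). All genes called moved from 82 to 10911 with deposited FPKM, 1 with no filter, 133 with a mean of at least 1 FPKM (5 of the 9 genes tested), 152 with array weights, 271 with voom, 6 with the replicate block and 1 to 140 with a kidney left out. Deposited FPKM turned Tgfb3 (−0.13), Fn1 (−0.60) and Mmp2 (−0.15) below 0. Fn1 was also below 0 with array weights (−0.082), with voom (−0.037) and without cyclosporine A replicate 4 and saline replicate 2 together (−0.40), each the kidney of highest mitochondrial share in its group, a choice made after seeing the data, which gave Tgfb1 −0.36, Ccn2 −0.077 and Lox −0.40. With a kidney left out, Tgfb1 ran from −0.25 to 0.099, Ccn2 from −0.27 to 0.25, Fn1 from −0.25 to 0.43 and Lox from −0.26 to 0.092. The cause was not tested.

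For tacrolimus 0 of the 9 genes were called under any alternative, and all genes called rose from 47 to 77 with array weights. With a kidney left out, Tgfbr2 ran from −0.012 to 0.092, Fn1 from −0.054 to 0.099 and Mmp2 from −0.088 to 0.030.

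For the difference between the drugs, deposited FPKM gave 4 of the 9 and 10068 genes, and turned Ccn2 (−0.76), Fn1 (−0.63), Mmp2 (−0.11) and Lox (−0.44). Lox was also below 0 with a pseudocount of 0.1 (−0.21) and with voom (−0.75), as was Fn1 with voom (−0.060). With a kidney left out, 0 to 1 of the 9 and 27 to 267 genes were called, Fn1 ran from −0.27 to 0.41 and Lox from −0.17 to 0.18.

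Same-numbered kidneys of drug and vehicle did not deviate together (r from −0.15 to 0.21 and from −0.15 to 0.18), so the numbers were not taken as pairs. With the replicate block 6 genes were called for cyclosporine A, 44 for tacrolimus and 181 for the difference, 1 of the 9 among the last (Tgfbr2, limma adjusted p = 0.0461). Depth limits Tgfb2, Tgfb3, Mmp2 and Lox, with 1 to 121 fragments per kidney in the cyclosporine A table, and Tgfbr2 in the treated kidneys (19 to 63).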

Other observations

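Beside the 9 genes, the marker lists of kidney cell types were read from the same fits. With cyclosporine A the 6 urothelial markers, genes of the lining of the renal pelvis, summed to 7.29 to 17.8 rescaled FPKM against 1.64 to 4.27 with saline. Of the 6, 1 was at 0 in all cyclosporine A kidneys, and the sums were not taken on deposited FPKM. Of the 4 tested 1, Upk1a, was called higher by limma (1.30 ± 0.540 to 5.49 ± 0.854 rescaled FPKM, SD, n = 4 each). Of 4 thick ascending limb markers 1 was called lower, Umod (327 ± 101 to 127 ± 38.2 rescaled FPKM, SD, n = 4 each), and of 7 proximal tubule markers 1 was called higher, Slc5a2 (0.282 ± 0.170 to 1.47 ± 0.430, SD, n = 4 each). Of those 7 markers 2 were above 0 and the median log2 fold change was −0.10. Of the 4 thick ascending limb markers 1 was above 0 and the median was −0.53. Each of these calls was lost in some settings: with no filter on low values or the replicate block all 3 missed the threshold (limma adjusted p from 0.0536 to 0.115), and of 8 kidneys left out in turn the call held for 6 with Upk1a, 1 with Slc5a2 and 0 with Umod. Of the fibroblast, pericyte and smooth muscle, endothelial, macrophage, podocyte, collecting duct and adipocyte markers 0 were called by limma, with 1 of 5, 2 of 8, 1 of 9, 1 of 9, 2 of 5, 1 of 5 and 0 of 4 tested genes at an unadjusted p under 0.05. In the urothelial, proximal tubule and thick ascending limb lists that count was 4 of 4, 4 of 7 and 2 of 4, beside 16.2% of all genes. On deposited FPKM Upk1a was not called (0.57, log2, limma adjusted p = 0.0705). With tacrolimus 4 of 6 adipocyte markers had an unadjusted p under 0.05, beside 8.58% of all genes, and 1 was called lower, the brown fat gene Ucp1 (15.1 ± 7.73 to 0.619 ± 0.984 FPKM, SD, n = 6 each), a call that voom did not give (limma adjusted p = 0.0514), and their summed level was 46.0 to 93.7 FPKM against 66.7 to 155 with vehicle. Upk1a, Umod, Slc5a2 and Ucp1 were named after their values were seen. The shares of each cell type in the dissected tissue were not measured.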
